A study of Homo sapiens with 3 samples.

Results

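RNA editing by an RBFOX2-APOBEC1 fusion was examined in the transcripts of the nuclear genes for mitochondrial ribosomal proteins and for the mitochondrial protein translocases. Members were chosen by symbol alone, as genes named MRPL or MRPS plus a number (large and small subunit of the mitochondrial ribosome), TOMM plus a number (named for the outer membrane) or TIMM plus a number (named for the inner membrane), and pseudogene copies were dropped. This gave 74 of 9904 genes with an edited region and 315 of 40843 edited regions, which numbered 89 of 14295, 118 of 15181 and 108 of 11367 in replicates 1, 2 and 3. Of 102 protein-coding RefSeq symbols that match the names, these 74 are 72.5%. The rest include MRPL57, MRPL58 and TIMM29, which have clusters under older names. The same share over all protein-coding genes was not computed, so 72.5% cannot be called high or low.
The samples were 3 replicates of 1 group. The sample titles and the study name the human embryonic kidney line HEK293T, while the cell line label reads HEK293XT, a lentiviral packaging derivative of it, with genotype given as WT. The cells expressed the fusion under doxycycline for 72 h. The fusion construct was introduced by transient transfection according to the treatment label and the study, although the culture notes in the labels speak of stable lines. No cells without the fusion and no cells with APOBEC1 alone were among the samples, so editing that does not depend on RBFOX2 cannot be told apart from editing that does, and all values describe this one line with an introduced fusion.
Mitochondria carry their own ribosomes, which make a few hydrophobic subunits of the respiratory chain from mitochondrial DNA. The proteins of these ribosomes are encoded in the nucleus, made in the cytosol and imported through the TOM complex of the outer membrane and, for proteins with a presequence, the TIM23 complex of the inner membrane, while the TIM22 complex inserts carrier proteins. RBFOX2 is an RNA-binding protein best known as a regulator of splicing. In STAMP (Surveying Targets by APOBEC-Mediated Profiling) it is fused to APOBEC1, a cytidine deaminase that turns C into U in RNA near the bound site, and the editing is read from RNA sequencing. FLARE, the authors' program, reports regions of enriched editing, called clusters. The edit fraction of a cluster is its edited bases as a percentage of all C bases covered by reads in it, and an edited read is a read with at least 1 such change.
The reads inside all clusters of a replicate numbered 1104249 to 1731304, and the median cluster had a mean read depth of 21.1 to 25.1. RBFOX2 itself held 16 or 17 clusters in every replicate. The study calls the replicates biological, and the labels do not say whether they were separate cultures.

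Member clusters numbered 105 ± 14.7 per replicate (SD, n = 3) and lay in 49, 56 and 56 member genes. They were 0.783% ± 0.164 of all clusters and held 0.731% ± 0.0431 of all edited bases. A cluster was present in all 3 replicates for 36 of the 74 genes (48.6%), compared with 37.9% of all 9904 genes. Another 15 genes had clusters in 2 replicates and 23 in 1. The median number of clusters per gene was 4 for members and 3 over all genes, while the mean was 4.26 and 4.47, and 19 member genes had a single cluster in all.
Clusters in all 3 replicates were most frequent among the TOMM genes, in 7 of 8. TOMM5 is counted among the 7, although all its clusters list other genes too. The numbers were 15 of 31 for MRPL, 11 of 23 for MRPS and 3 of 12 for TIMM. This difference between families was not tested, and the TOMM clusters also had the highest median read depth, 87.7 ± 22.5, against 57.5 ± 12.4 for MRPL, 54.8 ± 13.5 for MRPS and 68.8 ± 12.9 for TIMM. Median edit fractions overlapped between the families. They were 1.10% ± 0.0638 in MRPL, 1.15% ± 0.117 in MRPS, 0.996% ± 0.163 in TOMM and 1.14% ± 0.398 in TIMM (SD, n = 3 replicates).
Editing was unequally spread over the genes. TOMM7, TOMM20 and TOMM5 together held 352 of the 1232 edited reads in member clusters, or 28.6%. All clusters counted for TOMM5 list other genes too, so its 93 edited reads cannot be given to TOMM5 alone.

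**Figure D1:**
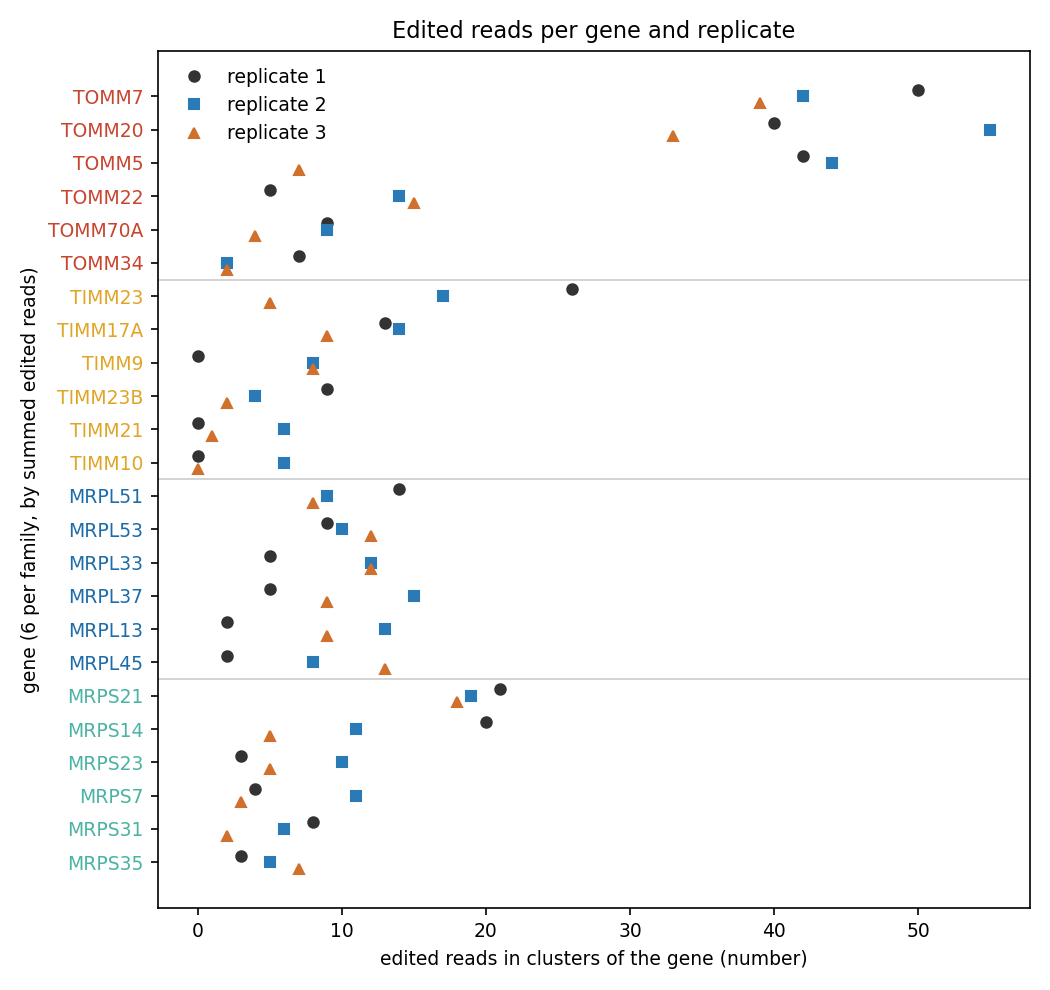
Edited reads in the clusters of the 6 genes with the most edited reads in each family (x axis, number of reads), with 1 point for each replicate. TOMM7 and TOMM20 lie above 30 edited reads in every replicate, TOMM5 does so in replicates 1 and 2 only, and every other gene drawn stays below 30 in all 3 replicates. All clusters counted for TOMM5 list other genes too.

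In the outer membrane family, TOMM7 had the most edited reads. It encodes a small subunit of the TOM complex that modulates its assembly. Its single cluster spanned the same 120 bases in all 3 replicates, at chr7:22852612-22852731 on the minus strand (hg19), in the segment at the 3′ end of the gene. There, 50 of 1218 reads were edited in replicate 1, 42 of 1139 in replicate 2 and 39 of 963 in replicate 3. The edit fractions were 0.556%, 0.508% and 0.535%, the narrowest relative spread among the well-covered loci of the family.
TOMM20, the receptor that recognises presequences, had the most clusters of any member, 21, with 128 edited reads in total. All but 1 of them lay in the segment at its 3′ end, where 20 clusters were spread over 2370 bases (chr1:235272802-235275171, minus strand). Replicate 1 had 3 clusters there, replicate 2 had 9 and replicate 3 had 8. They covered 405, 540 and 315 bases.
When overlapping clusters were merged across replicates, the 20 clusters fell into 11 loci, and 2 of these held clusters of all 3 replicates. The first, chr1:235274407-235274736, had edit fractions of 0.682%, 0.754% and 0.644%. In replicate 1 it was 1 cluster of 330 bases, but 3 shorter clusters in each of replicates 2 and 3, so the reads compared there do not come from the same bases. Edited reads, summed over clusters, were 35 of 414, 30 of 734 and 14 of 363. In replicates 2 and 3 a read reaching into more than 1 of the 3 clusters may be counted repeatedly. The second, chr1:235275067-235275171, was shallow, with 2 of 44, 3 of 57 and 2 of 11 reads edited. Its edit fractions of 1.35%, 3.38% and 5.41% thus rest on 2 or 3 edited reads each.

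**Figure D2:**
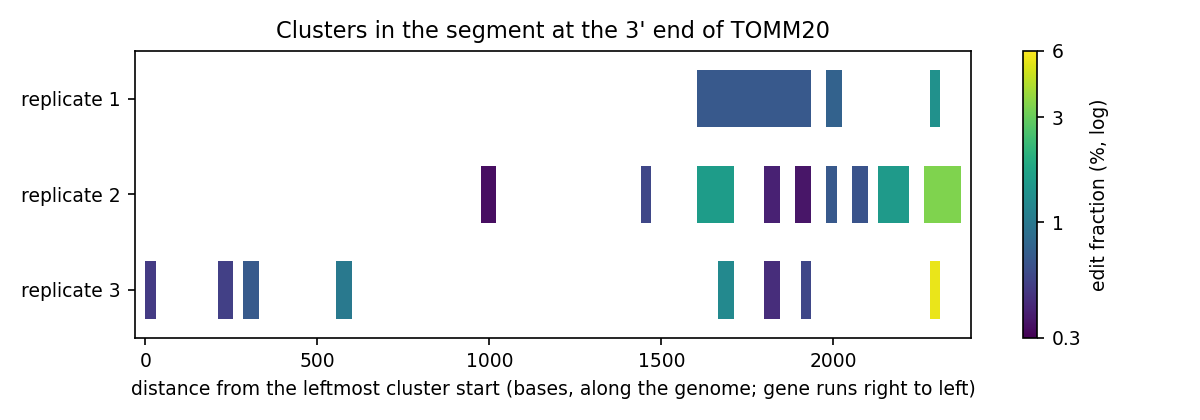
Clusters in the segment at the 3′ end of TOMM20, drawn to scale by distance in bases from the leftmost cluster start (x axis) in 3 lanes for the replicates, and coloured by edit fraction on a log scale. All 3 replicates have clusters between 1605 and 1935 bases, whereas the clusters left of 600 bases occur in replicate 3 alone.

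TOMM5, another small TOM subunit, had a locus at chr9:37588696-37588920 (minus strand) with edit fractions of 0.548%, 0.483% and 0.497%. Edited reads were 31 of 959, 34 of 899 and 7 of 369, and the cluster was 225 bases long in replicates 1 and 2 but 60 bases in replicate 3. The deposited annotation assigns this locus also to FBXO10 and to 2 clone-based names, so its reads cannot be given to TOMM5 alone.
TOMM5 is also listed in 4 of the 5 intronic member clusters. These lie near chr9:37882334-37886552, far from the exonic locus. They list SHB, EXOSC3, SLC25A51 and other genes beside TOMM5, so their editing cannot be given to TOMM5. They include the highest edit fraction of any member cluster, 25.0% in replicate 2 at chr9:37882469-37882543, where 12 of 48 covered C bases and 3 of 15 reads were edited. That position had no cluster in the other replicates.
TOMM22, the central receptor and organiser of the TOM complex, had a locus at chr22:39079878-39080057 (plus strand). Its edit fractions of 0.392%, 0.365% and 0.307% gave the lowest mean, 0.355%, of the 16 member loci with clusters of all 3 replicates. Edited reads were 5 of 306, 14 of 460 and 12 of 357. The clusters of replicates 1 and 3 shared no base with each other, so no base lay in clusters of all 3.
TOMM70A, the older symbol of TOMM70, a receptor for carrier precursors, had 11 clusters and no locus in more than 1 replicate. TOMM40, the channel of the complex, had 1 cluster in each replicate and no 2 of these overlapped. In replicate 3 it had an edit fraction of 5.00% at a mean depth of 124, which rests on 1 edited base of only 20 covered C bases. TOMM34 had 5 clusters in 3 replicates and TOMM40L had 2 clusters in 1 replicate.

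In the inner membrane family, the core subunits of the TIM23 complex led. TIMM23, its channel subunit, had 48 edited reads in 9 clusters, and TIMM17A, the partner of TIMM23 in the complex, had 36 in 10. TIMM23B had 15 in 6. TIMM23 and TIMM23B are close copies on chromosome 10, so how reads were split between them is uncertain.
The TIMM23 locus chr10:51592396-51592515 (minus strand) had edit fractions of 0.919%, 0.733% and 0.716%, with 8 of 232, 4 of 175 and 2 of 114 reads edited. The TIMM23B locus chr10:51381440-51381529 (plus strand) had 1.07%, 1.08% and 1.69%, with 4 of 58, 2 of 81 and 2 of 53 reads edited. At TIMM17A, the locus chr1:201938688-201938762 (plus strand) had 0.621%, 0.491% and 0.659%, with 3 of 189, 5 of 231 and 2 of 150 reads edited. These 3 were the only TIMM loci with clusters of all 3 replicates. At TIMM23 and TIMM17A the clusters of replicates 2 and 3 shared no base with each other and were joined through that of replicate 1, and at TIMM23B 15 bases lay in clusters of all 3.
Other TIM23 genes had few clusters. TIMM21 had 3, and TIMM17B, TIMM44 (which tethers the import motor) and TIMM50 (the presequence receptor) had 1 each. TIMM22, the core of the carrier translocase, had a single cluster in replicate 3 in which 3 of 62 reads carried 17 edited bases. Among the small chaperones of the intermembrane space, TIMM9 had 16 edited reads in 4 clusters, none of them in replicate 1, TIMM8A had 5 in 3 clusters and TIMM10 had 6 in 1 cluster. TIMM10B had 6 edited reads in 3 clusters of 1 replicate.

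Of the large subunit genes of the ribosome, MRPL51 and MRPL53 had the most edited reads, 31 each, followed by MRPL33 and MRPL37 with 29 each. MRPL51 was edited in every replicate, with 14, 9 and 8 edited reads, but none of its 6 clusters overlapped one of another replicate. Its depth was high, up to 368, and 5 of the 6 clusters had edit fractions between 0.359% and 0.583%.
MRPL53 gave the opposite picture. Its locus was the same 30 bases in all 3 replicates, chr2:74699697-74699726 on the minus strand, with 9 of 148, 10 of 136 and 8 of 121 reads edited and edit fractions of 0.974%, 1.31% and 1.15%. The annotation assigns it to CCDC142 as well. In replicate 1 the deposited numbers give 9 edited reads but 8 edited bases there, the only member cluster with more edited reads than edited bases.
MRPL33 had a locus at chr2:28002346-28002420 (plus strand) with 3 of 236, 10 of 357 and 9 of 285 reads edited and edit fractions of 1.06%, 1.18% and 0.976%. The cluster was 30 bases long in replicate 1 and 75 bases in replicates 2 and 3. MRPL33 also held the highest edit fraction among member clusters at a mean depth of at least 50, 6.98% in replicate 2 at chr2:27995098-27995202. Only 129 C bases were covered there, or 6.45 per C position, while the mean depth was 67.7, and 2 of 71 reads were edited.
A similar gap occurred in the one intronic cluster of MRPL17, with 6.67% in replicate 2 from 1 edited base of 15 covered C bases (5.00 per C position at a mean depth of 83.8). In all, 12 of the 315 member clusters had a coverage per C position under 50% of their mean depth.
MRPL45 had the most clusters of the large subunit genes, 11, and 4 of its loci were shared by 2 replicates but none by 3. In replicates 1, 2 and 3 its clusters held 2, 8 and 13 edited reads. The 2 MRPL loci with clusters of all 3 replicates were therefore those of MRPL33 and MRPL53.

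The small subunit genes held 6 of the 16 loci with clusters of all 3 replicates, the most of any family by number. These came from 23 genes with 87 clusters, whereas the TOMM family held 5 from 8 genes with 58 clusters. MRPS21 led with 58 edited reads in 10 clusters, and it held 2 neighbouring loci on the plus strand of chromosome 1. At chr1:150266416-150266475 the edit fractions were 0.433%, 0.433% and 0.664%, with 10 of 214, 5 of 172 and 7 of 160 reads edited. At chr1:150266506-150266640 they were 0.831%, 0.788% and 0.844%, with 10 of 222, 14 of 294 and 6 of 127. The second locus had the higher edit fraction in every replicate.
MRPS14 followed with 36 edited reads in 8 clusters. Its locus chr1:174983625-174983744 (minus strand) had 12 of 168, 10 of 156 and 4 of 72 reads edited, and edit fractions of 0.813%, 1.06% and 1.09%. MRPS23 and MRPS7 had 18 edited reads each. The MRPS23 locus chr17:55916948-55917127 (minus strand) had 1.05%, 0.840% and 0.429%, with 3 of 76, 7 of 276 and 5 of 202 reads edited, and its cluster was 45, 150 and 45 bases long, with no base shared by all 3.
The MRPS7 locus chr17:73262294-73262413 (plus strand) had 1.21%, 1.29% and 2.01%, with 4 of 123, 6 of 140 and 3 of 75 reads edited. The MRPS18B locus chr6:30587721-30587780 (plus strand) had 1.26%, 1.23% and 0.807%, with 2 of 90, 4 of 107 and 4 of 99 reads edited. Both counts are small, and the edited read shares of the replicates lie within each other's Wilson 95% intervals.

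Merged over replicates, member clusters formed 245 loci, of which 16 (6.53%) held clusters of all 3 replicates, 33 of 2 and 196 of 1. Over all genes, 4.77% of 33244 loci held clusters of all 3. Merging can chain clusters, so a locus need not hold a base common to the 3 replicates. Such a base was present in 12 of the 16 member loci, all but those of TOMM22, TIMM23, TIMM17A and MRPS23, and in 1350 of the 1586 loci over all genes. Only TOMM7 and MRPL53 had the same bounds in all 3 replicates, so at the other 14 loci the reads and bases compared come in part from different positions. The 16 loci lay in 14 genes, and their mean edit fractions ran from 0.355% in TOMM22 to 3.38% in the shallow TOMM20 locus, with a median of 0.805%. In 10 of them the mean was below 1%. The SD between the locus means was 0.709 percentage points, or 0.328 without the shallow TOMM20 locus. The SD over the replicates of 1 locus had a median of 0.123 percentage points and was largest, 2.03, in that shallow locus. An SD and a median of SDs are unlike measures. Read depth also differed between the loci and was not adjusted for, so these values are a description.
Whether the replicates gave the same share of edited reads was tested at each locus with a two-sided Fisher-Freeman-Halton exact test, adjusted by Benjamini-Hochberg over all 1586 loci with clusters of all 3 replicates. The shares differed at 11 loci, or 0.694%, and at 0 of the 16 member loci, where 1 locus and over all genes 126 loci had an unadjusted p under 0.05. That one was the first TOMM20 locus, with 8.45%, 4.09% and 3.86% of reads edited (exact p = 0.00405, adjusted p = 0.248), where the cluster of replicate 1 was the longest. Few edited reads, unlike cluster bounds and reads that may be counted repeatedly where a locus holds several clusters of a replicate limit this test. A p that misses the threshold does not show equal shares.

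**Figure D3:**
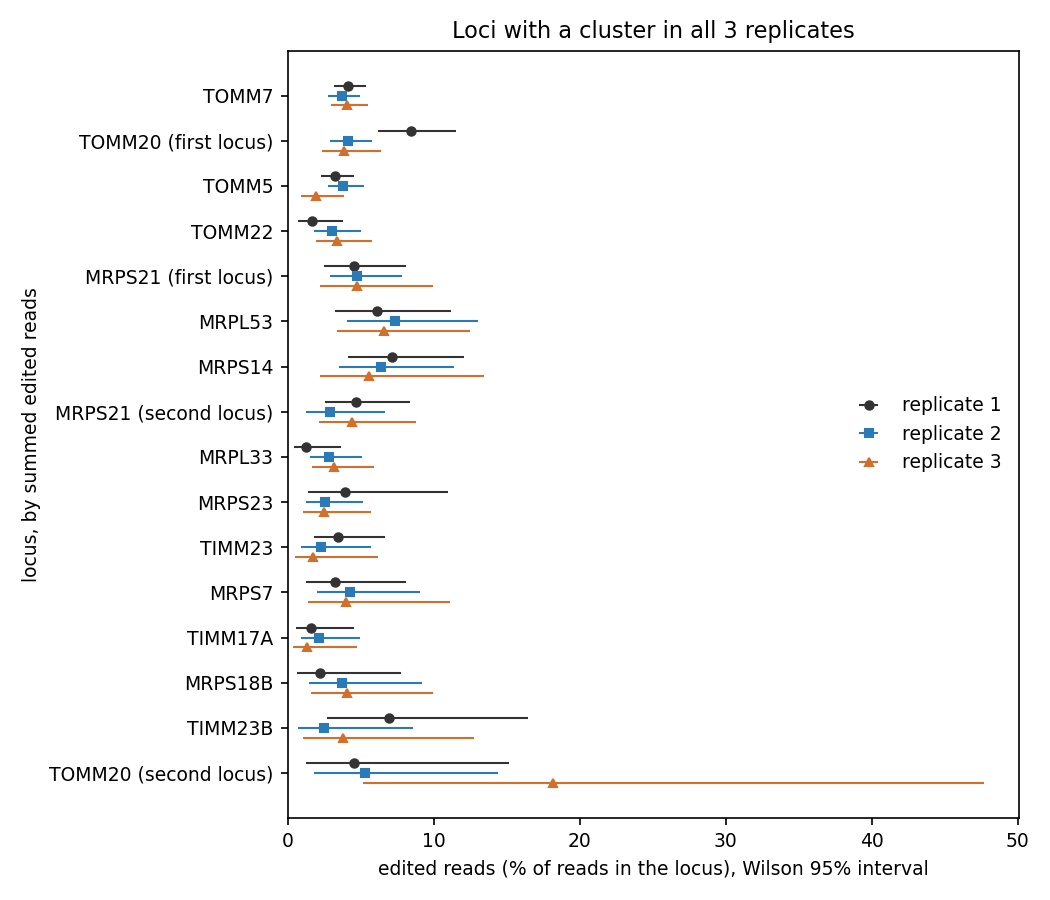
Share of edited reads (x axis, % of the reads in the locus) at the 16 member loci with a cluster in all 3 replicates, with 1 point per replicate and Wilson 95% intervals, which cover counting error only. The intervals of the 3 replicates overlap at each locus except the first TOMM20 locus, where replicate 1 (8.45%) lies above replicate 2 (4.09%).

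The edit fraction was lower where read depth was higher across member clusters. Member clusters were deeper than the rest, with median depths of 56.3, 70.7 and 50.1 in replicates 1, 2 and 3 against 25.0, 24.5 and 20.9 for all other clusters. Their median edit fractions of 1.12%, 1.01% and 1.17% were below the 1.64%, 1.65% and 1.81% of all other clusters in each replicate. The difference was -0.600 ± 0.0681 percentage points (SD, n = 3; exact two-sided sign-flip permutation p = 0.25, the smallest that 3 replicates allow). Taken within classes of read depth, the mean difference turned to 0.154 ± 0.155 percentage points (exact sign-flip p = 0.5). It was positive in replicates 1 and 2 but negative in replicate 3, so the change of sign did not hold in each replicate. The classes under a depth of 50 held only 3 to 15 member clusters per replicate.
At a depth of at least 50, which 57.5% of member clusters and 27.0% of the others reached, the medians were 0.729% ± 0.0279 and 0.784% ± 0.0100. Members were lower there in every replicate, with 0.758%, 0.728% and 0.702% against 0.775%, 0.795% and 0.783%. Spearman's rho of depth and edit fraction across member clusters was -0.830, -0.797 and -0.795 (n = 89, 118 and 108), as a description, since clusters of 1 library share its depth and the edited bases enter both the filter and the fraction. It was -0.781, -0.773 and -0.790 across all other clusters.
The extremes followed the same pattern. Of the 24 member clusters with an edit fraction of at least 5%, 18 had a depth under 20, and 137 of 315 member clusters had an edit fraction under 1%.

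**Figure D4:**
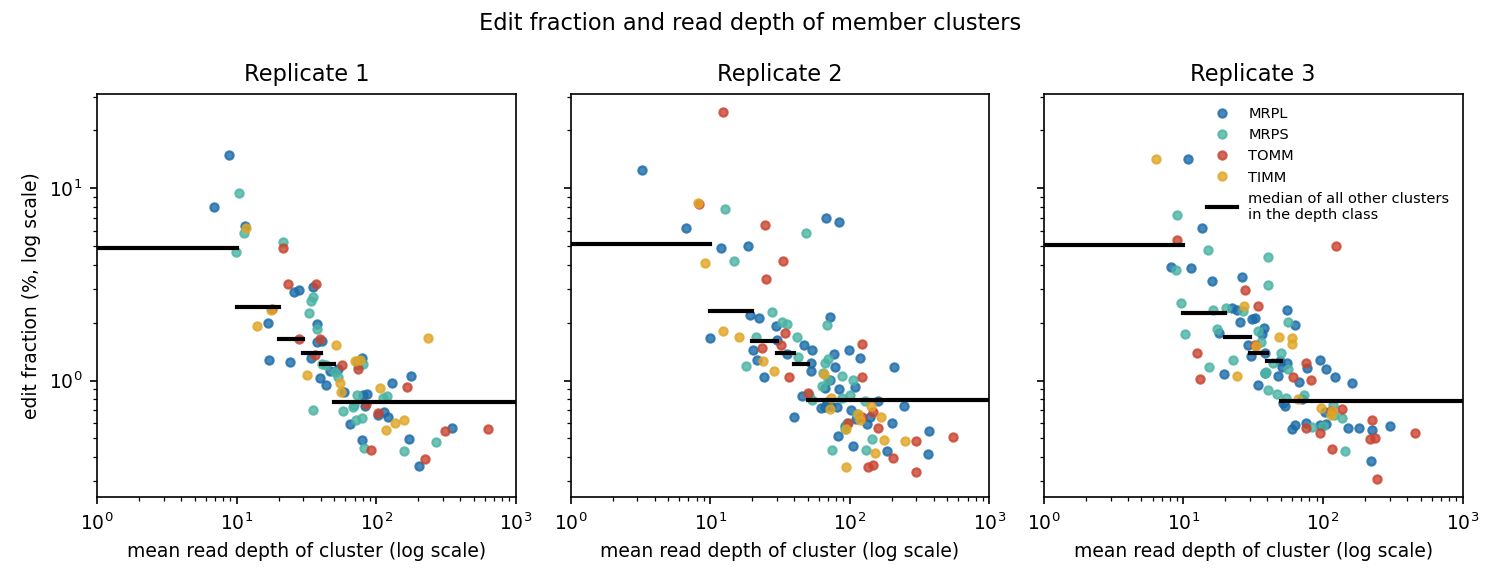
Edit fraction (y axis, %, log scale) against mean read depth (x axis, reads, log scale) of the 315 member clusters, in 1 panel per replicate and coloured by family, with black bars for the median of all other clusters in each depth class. The edit fraction falls with depth in each panel. The highest point, at 25.0%, is the intronic cluster of replicate 2 that lists TOMM5 among other genes.

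Many clusters rest on very few reads. A single edited read carried 24.0% ± 3.32 of member clusters and 30.7% ± 2.57 of the others (difference -6.77 ± 3.79 percentage points, exact sign-flip p = 0.25). In 43 of the 75 member clusters with 1 edited read, that read carried at least 3 edited bases, and the highest number was 9, in TOMM70A in replicate 1. Such clusters were 13.9% ± 3.21 of all member clusters and 12.9% ± 0.959 of all others per replicate. The difference was 0.959 ± 3.33 percentage points (exact sign-flip p = 0.75).
MRPL42, named after its values were seen, shows such a pattern at one place in 2 replicates. At chr12:93895118-93895192, 1 of 23 reads with 6 edited bases made the cluster of replicate 1, and 1 of 20 reads with 5 edited bases made the one of replicate 2.
The number of edited reads went with recurrence. Of the member clusters with 1 edited read, 0 of 75 were found in all 3 replicates (overlap of at least 1 base). Independent clusters would allow a share of up to 4.0%, but these clusters are not independent across replicates, so this is no valid limit. With 2 edited reads it was 5 of 76. With 3 to 5 edited reads it was 13 of 118, and with at least 6 it was 26 of 46. For at least 6 edited reads this is 57.2% ± 2.73 per replicate, next to 57.3% ± 4.65 for all other clusters. With 2 edited reads it is 6.64% ± 2.22 next to 4.05% ± 1.45, and with 3 to 5 it is 11.8% ± 5.47 next to 13.6% ± 4.36. Other clusters with 1 edited read had 2.25% ± 0.496, so the rise with edited reads was common to both sets.
Over all member clusters, 14.1% ± 1.46 were found in all 3 replicates, against 11.2% ± 1.72 of the others. The difference of 2.92 ± 2.76 percentage points did not hold in each replicate (exact sign-flip p = 0.5). The replicates are not independent in this measure, since the same shared places are counted in each, and its SD and p add little. It reversed to -4.60 ± 3.14 within depth classes and to -3.70 ± 5.35 at a depth of at least 50.

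**Figure D5:**
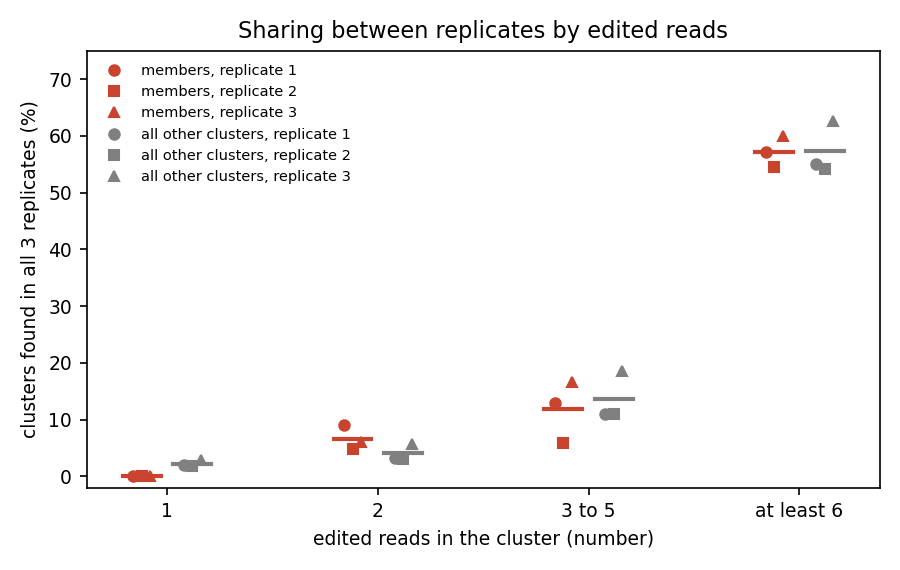
Share of clusters found in all 3 replicates (y axis, %) by the number of edited reads in the cluster (x axis), for member clusters (red) and all other clusters (grey), with 1 point per replicate and a bar for the mean. In both sets the share is below 10% with 1 or 2 edited reads and above 50% with at least 6.

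Position along the gene could be read only in part, for minus-strand clusters. The deposited segment numbers rise with genome position, so number 0 is the segment at the 3′ end of the deposited annotation there. That end need not be the member's own where a cluster lists other genes too, as at the TOMM5 locus (number 18). Of the minus-strand member clusters, 22 of 48, 37 of 64 and 26 of 51 lay in that segment, or 51.5% ± 6.01, compared with 59.6% ± 2.49 of the other minus-strand clusters. The difference of -8.06 ± 8.47 percentage points was smaller than its spread (exact sign-flip p = 0.5). With only clusters whose every listed gene is a member, the members' share in that segment was 56.9% ± 7.96 (chosen after seeing the data). Among the 8 recurring minus-strand loci, 5 lay there, those of TOMM7, TIMM23 and MRPS23 and both of TOMM20. Introns held 5 of the 315 member clusters and 2.12% ± 0.301 of the others per replicate, a difference in share of -0.620 ± 1.45 percentage points (exact sign-flip p = 0.5).

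Transcripts of related machines were set beside the members. The genes of the cytosolic ribosome, which is built from other proteins, held 358 clusters at a much greater median depth, 560, and 32.0% ± 6.10 of them were found in all 3 replicates. Their edited bases were 0.441% ± 0.0254 of covered C bases when pooled over clusters, below the 0.796% ± 0.0353 of the members in every replicate (exact sign-flip p = 0.25). By the median over clusters no such difference was seen, as members minus cytosolic ribosome was -0.353, 0.179 and 0.411 percentage points (0.0790 ± 0.392, exact sign-flip p = 0.75), and by the mean it was -0.0811 ± 0.536 (exact p = 1). The products of the mitochondrial ribosome are built into the respiratory chain. Nuclear genes of this chain were taken by symbol alone, and assembly factors with such symbols were not left out. They held 335 clusters at a median depth of 129, with a pooled edit fraction of 0.574% ± 0.00843. Of these clusters, 27.8% ± 3.92 were found in all 3 replicates. The corresponding share of the members, 14.1%, was below both, and so was their median read depth. These shares are given as a description, since they are defined over the 3 replicates together.
A further list held 47 genes of mitochondrial import and translation whose symbols lie outside the naming rule. Of these 47 genes, 35 had a cluster, with 175 clusters in all. Of the 35 genes with a cluster, 17 had clusters in all 3 replicates. Over all 9904 genes with a cluster, 37.9% had clusters in all 3 replicates. Clusters were present in 14 of 19 genes listed under import, 5 of 7 ribosomal proteins under other names, 10 of 11 genes listed under translation and 6 of 10 under assembly. These groups are broad, with HSPE1 and TIMMDC1 under import and LRPPRC under translation. LRPPRC, which stabilises mitochondrial mRNAs, had the most clusters, 17, and HSPA9, the motor chaperone of import, had 16 with 125 edited reads. DAP3, a small subunit protein, had 12.
In this list, 5 loci had clusters of all 3 replicates, 2 in HSPA9 and 1 each in HSPE1 (the cochaperonin of the matrix), TIMMDC1 (a factor in complex I assembly) and TSFM (a translation elongation factor). The loci of the list were not counted in all, so no share can be set beside the 4.77% over all genes. The ribosomal proteins MRPL57 and MRPL58 and the translocase subunit TIMM29 are listed in the files under the older names MRP63, ICT1 and C19orf52 and were not counted as members.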

How the data were processed

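Each of the 3 libraries (polyA RNA per the labels) came as a table of scored clusters. The authors called C-to-U changes with SAILOR, searched 30-base windows with FLARE, kept those with an adjusted p-value up to 0.1, joined windows up to 15 bases apart and scored the clusters. The submitters' processing notes name STAR and hg19, and versions are not given in the sources used here. The deposited counts of reads, edited reads, C bases, covered C bases and edited bases are whole numbers per cluster with no scaling. The deposited edit fraction is a fraction of covered C bases and equalled the quotient of the counts in 40843 of 40843 clusters. The deposited mean read depth is a coverage signal, and the deposited score is a cumulative negative binomial probability. The tables list only windows that passed the filter, and the number of edited reads limits the precision of each value. Reads without molecular identifiers are not independent, so intervals cover counting error only.
A cluster was a member if any gene it lists fits the naming rule, and 25 of 315 list another gene as well. Start positions were taken as 0-based and are printed 1-based. Loci are clusters chained across replicates by at least 1 shared base on the same strand. Reads and edited reads of a locus or gene are sums over its clusters, so a read reaching into neighbouring clusters may be counted repeatedly. Medians and shares per replicate are given as mean ± SD, and differences were tested by exact two-sided sign-flip permutation over 3 replicates, where p = 0.25 is the smallest possible. Edited read shares were tested per locus by the Fisher-Freeman-Halton exact test, or chi-square above 300 edited reads, with Benjamini-Hochberg adjustment and a threshold of 0.05. The tools were SciPy 1.17.1, pandas 2.3.3 and NumPy 2.4.6 in Python 3.11.15, with matplotlib 3.10.9 for figures, and the code was tested on simulated data.
Genes named are those with a locus in all 3 replicates, the 3 with the most edited reads and the one with the most clusters per family, those with an intronic cluster and those with the 3 highest edit fractions at a depth of at least 50. The remaining TOMM and TIMM genes were named to complete their families. Members and lists were chosen with earlier results of these data known. Alternatives were minimum scores, depths and edited reads, an overlap of 50%, means or pooled fractions, depth classes, exonic clusters only and leaving out each replicate. Alternatives for clusters with several genes, for TIMM23 copies, for a base common to all replicates and for cluster extent, and those for the 3′ segment, were chosen after seeing the data. RefSeq symbols (GRCh38.p14) were used for names only. Cluster sequences and motifs were not analysed here.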

Additional observations from a re-analysis of the deposited data

Results flagged for a closer look

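Clusters in pseudogene copies, which the naming rule drops and no comparison used, held 14 edited reads in all. There were 2 in MRPL45P2 (1 cluster), 3 in MRPS31P4 (2 clusters) and 9 of 50 reads in MRPS31P5 (4 clusters, with 2, 1 and 1 in replicates 1, 2 and 3). They drew attention as edited reads outside the genes analysed, without control samples to compare. Their parent genes MRPL45 and MRPS31 had 23 and 16 edited reads, and how reads were divided between parents and copies was not tested.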

How the results depend on the processing

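Of 38 alternatives other than leaving out a replicate, over 8 results, 23 kept the direction of a difference or were classed as leaving a count or median near the reported one. Another 11 were classed as moving a count or median, and 4 reversed a difference. The class of near counts was wide. It took in a fall in member genes per replicate from 53.7 to 37.3 at a minimum score of 0.99 and to 38.3 at a depth of at least 50. Kept directions did not mean near values, since the difference in edit fraction was -0.988 at a minimum score of 0.99 and -0.0552 at a depth of at least 50, and that in the share found in all 3 replicates was 5.10 at the same score and 2.15 to 6.67 without 1 replicate. A minimum score of 0.99 gave 58 member clusters per replicate, a median edit fraction of 1.30% and 9 loci in all 3 replicates. A depth of at least 50 gave 60.7 clusters, a median of 0.729% and a share of 58.6% of minus-strand clusters in the 3′ segment (chosen after seeing the data). The median was 0.946% with at least 2 edited reads, the mean in its place 1.84% and the pooled fraction 0.796%. Within depth classes the mean difference in edit fraction from other clusters reversed to 0.154 percentage points, but it stayed negative in replicate 3. The difference in the share found in all 3 replicates reversed to -0.385 with an overlap of 50%, -3.70 at a depth of at least 50 and -4.60 within depth classes. The cause was not tested. An overlap of 50% left 4 loci, and 12 held a base in clusters of all 3 replicates (chosen after seeing the data). Without 1 replicate, 24 to 28 loci were shared by the other two, since fewer replicates have to match. The number of loci whose replicates differed was 58 with edited bases in place of reads, which are not independent within a read, and 4 to 4 without 1 replicate. No member locus was called in any of these settings. No paired analysis was possible because there is only 1 group. Few edited reads per cluster limit all values, since 75 of 315 member clusters rest on 1.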
